A study of Homo sapiens with 18 samples.

Results

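The genes described here are 32 genes of cholesterol synthesis, its control by SREBP factors, sterol transport and fatty acid synthesis, chosen by name for their known roles, out of the 26249 genes measured. They are 8 genes of the mevalonate pathway, 11 of the sterol branch, 5 SREBP control genes, the sterol carrier STARD4 and 7 fatty acid synthesis genes. Transcript levels came from 18 3′ end RNA sequencing libraries of human cultures labelled as the multiple myeloma lines XG1 and AMO1, and the series title concerns CDK7 inhibition in resistant lines of this plasma cell cancer. The cultures received YKL-5-124, which binds CDK7 covalently and inhibits it, at 100 or 1000 nM, or the solvent DMSO, for 6 h. CDK7 is a kinase of the transcription factor TFIIH and of the cell cycle. There were 3 libraries in each of the 6 groups, and no genetic change is labelled in either line. All 32 genes were present in the tables, and all 32 were among the 12204 genes tested, which reached a mean of 1 FPKM in at least 1 group.

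Cells make cholesterol from acetyl-CoA by the mevalonate pathway, which also feeds dolichol, ubiquinone and protein prenylation, and then by the sterol branch that starts at squalene. The membrane-bound factors SREBF1 and SREBF2 are carried by SCAP to the Golgi when sterols are low, are cut there and switch on these genes. INSIG1 and INSIG2 hold SCAP in the endoplasmic reticulum when sterols are high, and INSIG1 is itself a target of the SREBP factors. Fatty acid synthesis genes are under the same factors, mainly SREBF1.

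The labelled cell type was set against marker genes. The libraries labelled XG1 had summed levels of 72.2 to 76.0 FPKM in DMSO over the 11 plasma cell markers found, against 5215 to 7249 FPKM in AMO1. Over 18 erythroid markers the sums were 4503 to 4641 FPKM in XG1 libraries and 105 to 170.3 FPKM in AMO1, with GATA1, the erythroid master factor, at 28.5 ± 1.93 and 0.117 ± 0.0196 FPKM (SD, n = 3 each) and the plasma cell receptor TNFRSF17 at 0.883 ± 0.118 and 164 ± 13.4 FPKM. Of the erythroid list HBE1 went the other way in DMSO, at 49.1 ± 2.04 FPKM in XG1 libraries and 89.8 ± 30.7 FPKM in AMO1. EPOR did so too, at 1.49 ± 0.303 and 2.06 ± 0.895 FPKM, while AHSP, SLC4A1 and EPB42 were under 1 FPKM in both. The XG1 libraries lacked the levels of plasma cell markers seen in AMO1, and they are called by their label only. The plasma cell sum in XG1 libraries was 45.5 to 66.5 FPKM at 100 nM and 44.5 to 55.2 FPKM at 1000 nM, and its part in the results was not tested. Between 9284 and 10571 genes reached 1 FPKM per library, fewest in XG1 1000 nM replicate 2, which was the lowest of its group for 22 of the 32 genes. AMO1 DMSO replicate 3 was the lowest of its group for 23 of the 32, with a sum over them of 1176 FPKM, beside 1915 and 1852 FPKM in the other DMSO libraries of AMO1. Read numbers are not given, so the depth is unknown and no counting interval was set. FPKM, which are scaled by transcript length and by library, are not comparable between genes as molecules in 3′ end data. Levels are thus compared within a gene, and sums over genes only between libraries. High genes weigh most in these sums. In DMSO SDC1 was at 4004 ± 798 FPKM in AMO1, and XBP1 at 53.9 ± 2.28 FPKM in XG1 libraries. Changes are differences of log2(FPKM + 1) with their SE, which understate the change of low genes, and a gene is called where limma's Benjamini-Hochberg adjusted p over all genes tested is under 0.05. In such bulk RNA fewer cells of a type and less RNA per cell cannot be told apart.

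Of the 32 genes, 4 fell in XG1 libraries at 100 nM and the same 4 fell at 1000 nM, namely SQLE, DHCR7, INSIG1 and FADS1. At these doses 0 rose, where 2.63% and 1.9% of all genes did. At 100 nM 3.98% of all genes tested fell in XG1 libraries, and at 1000 nM 15.7%, while 12.5% of the 32 fell at either dose. In AMO1 at 100 nM INSIG1 fell and TM7SF2 rose, where 1.76% of all genes fell and 0.434% rose. In AMO1 at 1000 nM 8 of the 32 fell, which is 25%, beside 15.4% of all genes. They were HMGCS1, FDFT1, SQLE, MSMO1, DHCR7, SREBF1, INSIG1 and FADS1. TM7SF2 and STARD4 rose there, where 1.78% of all genes rose. With each library centred on its own median 3 of the 32 fell at 1000 nM in AMO1, beside 6.68% of all genes, and 3 in XG1 libraries, beside 7.94%. Centring takes out a shift of the median gene by its design. Scaling to synthetic spike-in transcripts, whose median deviation per library was -0.078 to 0.073 log2, left 8 falling at 1000 nM in AMO1, beside 15.4%. In XG1 libraries it left 4, beside 14.8%. With deviations this small the scaling left the values nearly as deposited. It could hardly change the counts and is no separate check of them. On leaving out 1 library 3 to 13 of the 32 fell in AMO1 at 1000 nM, lowest without DMSO replicate 2 or 1000 nM replicates 1 or 2 and highest without DMSO replicate 3, beside 8.12% of all genes without DMSO replicate 2 and 23.7% without DMSO replicate 3.

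The median change of the 32 genes in XG1 libraries was -0.07 log2 at 100 nM and -0.17 at 1000 nM, beside -0.01 and -0.19 over all genes tested. In AMO1 it was -0.14 at 100 nM and -0.27 at 1000 nM, beside -0.09 and -0.18 over all genes. Because the median gene moved at 1000 nM, the called changes of the 32 genes there are given also with each library centred on its own median. After centring the median over all genes was 0.07 in XG1 libraries and 0.11 in AMO1 at 1000 nM. All 32 changes in the 4 comparisons are drawn in the plot of log2 differences.

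**Figure D1:**
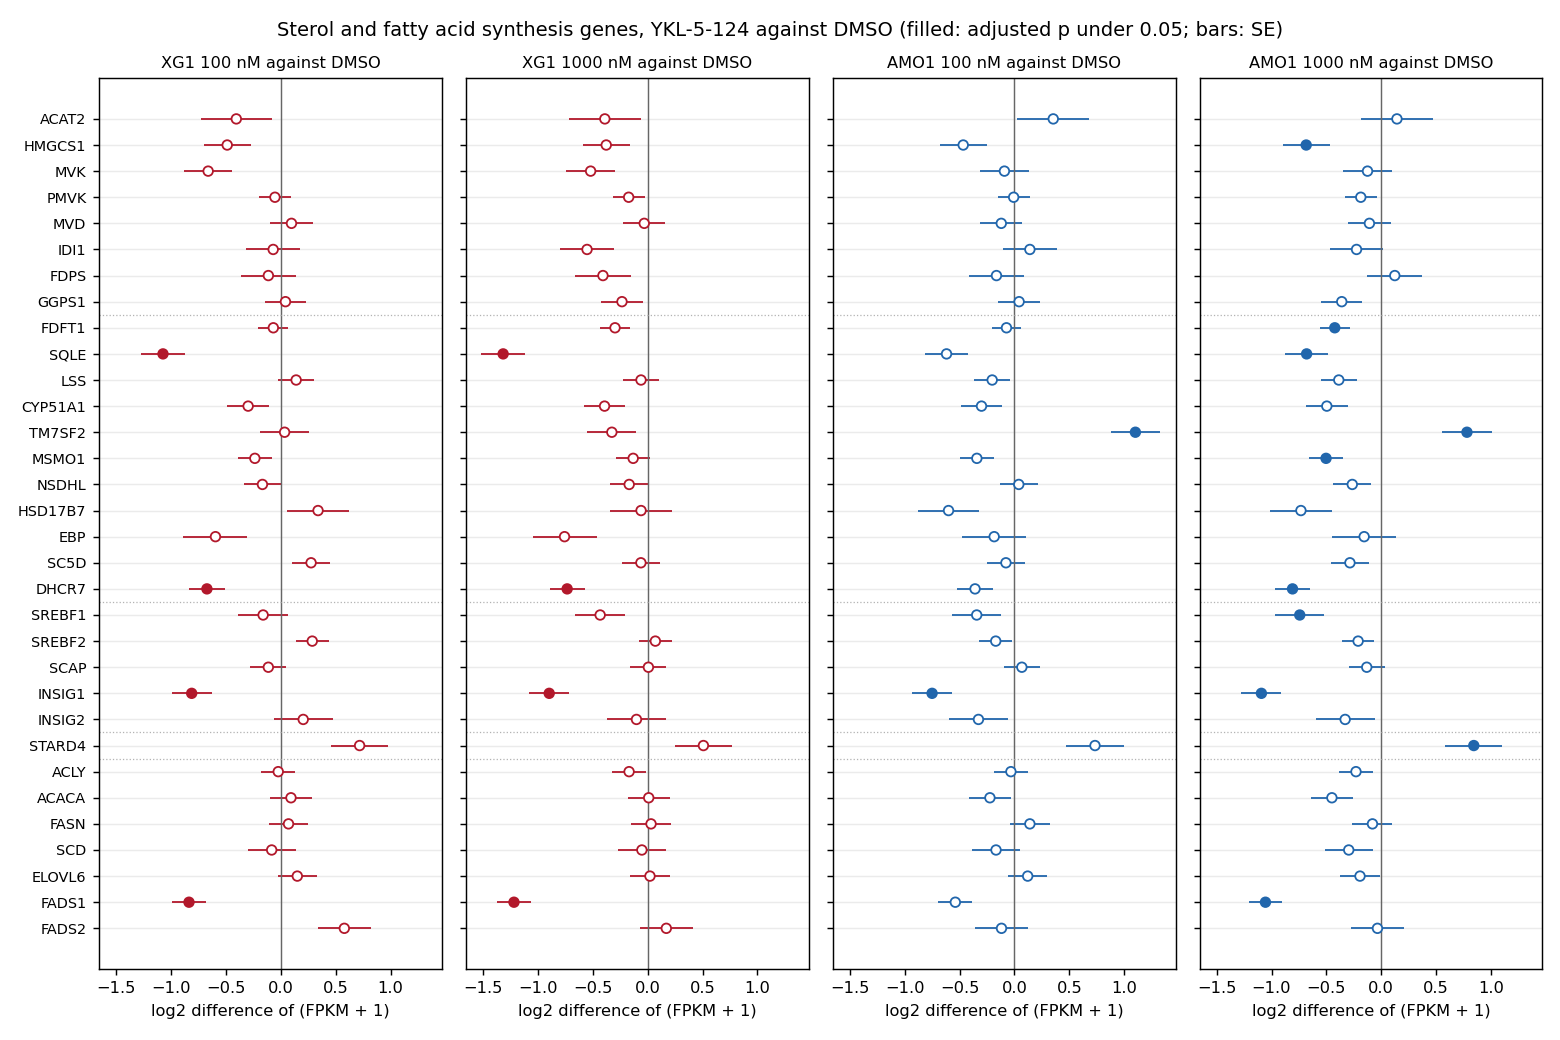
Differences of log2(FPKM + 1) between YKL-5-124 and DMSO (x axis) for the 32 genes (y axis, grouped from top to bottom as mevalonate pathway, sterol branch, SREBP control, transport and fatty acid genes), in XG1 libraries and AMO1 at 100 and 1000 nM. Filled points have an adjusted p under 0.05, and bars are SE; SQLE, DHCR7, INSIG1 and FADS1 are filled to the left of 0 in both lines at 1000 nM.

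Among the control genes INSIG1, the sterol-regulated anchor of SCAP, fell at both doses in both lines. In XG1 libraries it was at 13.1, 11.8 and 9.68 FPKM in DMSO, 4.39, 7.99 and 6.34 FPKM at 100 nM and 6.06, 4.47 and 6.72 FPKM at 1000 nM. All 6 treated XG1 libraries lay below the 3 DMSO libraries, and the doses overlapped. AMO1 libraries held INSIG1 at 87.6, 93.3 and 81.7 FPKM in DMSO, 45.1, 52.5 and 57.7 FPKM at 100 nM and 37.9, 40.4 and 43.2 FPKM at 1000 nM. The 3 AMO1 groups did not overlap, with the lowest values at 1000 nM. The change in XG1 libraries was -0.81 ± 0.18 log2 at 100 nM (adjusted p = 0.0106) and -0.90 ± 0.18 at 1000 nM (adjusted p = 0.00228), or -0.64 after centring. The AMO1 change was -0.75 ± 0.18 at 100 nM (adjusted p = 0.0342) and -1.09 ± 0.18 at 1000 nM (adjusted p = 4.94e-04), or -0.80 after centring. The calls at 1000 nM held in both lines under each alternative run, while those at 100 nM did not: without XG1 DMSO replicate 1 or 100 nM replicate 1 the adjusted p was 0.0553 and 0.0671, and without AMO1 DMSO replicate 1, DMSO replicate 2, 100 nM replicate 1 or 100 nM replicate 2 the adjusted p was 0.11, 0.139, 0.151 and 0.101. With only the compared libraries in the fit neither call at 100 nM passed (adjusted p = 0.0565 in XG1 libraries and 0.152 in AMO1). The AMO1 call at 100 nM was also lost with a pseudocount of 0.1, no filter or the replicate block (adjusted p = 0.0697, 0.0741 and 0.106).

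The promoter of INSIG1 is shown because the gene fell in all 4 comparisons. The stretch lies on chromosome 7 of GRCh38.p14 at chr7:155297628-155297775, plus strand, 250 to 103 bases before the RefSeq start. The short piece beside it is chr7:155297811-155297840, 67 to 38 bases before the same start. It lies in the first exon's span only by the GENCODE annotation, which starts the gene farther upstream. Capitals mark CCAAT, the letters bound by NF-Y, and GGGCGG, those bound by Sp1, and in the short piece TCACGTGA, an E-box that SREBP factors can bind, each on either strand.
INSIG1 upstream: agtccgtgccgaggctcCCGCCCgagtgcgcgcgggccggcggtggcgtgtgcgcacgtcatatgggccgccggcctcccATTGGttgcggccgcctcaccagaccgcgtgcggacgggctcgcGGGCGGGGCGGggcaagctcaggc
INSIG1 site: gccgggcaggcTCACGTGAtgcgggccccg

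The genes of the SREBP factors themselves moved less. SREBF1, which drives fatty acid genes in particular, was at 9.31, 9.40 and 5.65 FPKM in DMSO, 5.71, 8.07 and 7.36 FPKM at 100 nM and 7.60, 3.62 and 6.29 FPKM at 1000 nM in XG1 libraries. These groups overlapped, and the changes of -0.16 ± 0.23 (adjusted p = 0.776) at 100 nM and -0.43 ± 0.23 (adjusted p = 0.199) at 1000 nM did not pass the test. In AMO1 SREBF1 was at 8.48, 10.2 and 11.7 FPKM in DMSO, 9.02, 6.24 and 8.02 FPKM at 100 nM and 5.39, 6.04 and 5.35 FPKM at 1000 nM. All 3 AMO1 libraries at 1000 nM lay below the DMSO libraries, and those at 100 nM overlapped them. SREBF1 fell by 0.74 ± 0.23 log2 at 1000 nM in AMO1 (adjusted p = 0.0281), while the change of -0.34 ± 0.23 at 100 nM did not pass (adjusted p = 0.514). The call at 1000 nM was lost after centring (-0.45, adjusted p = 0.0961), and without AMO1 DMSO replicate 2, DMSO replicate 3, 1000 nM replicate 1, 1000 nM replicate 2 or 1000 nM replicate 3 the adjusted p was 0.083, 0.0697, 0.0861, 0.0584 and 0.0723. No filter, quantile normalization and the replicate block ended it too (adjusted p = 0.0673, 0.132 and 0.0645).

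SREBF2, the main factor of sterol genes, was at 9.04, 8.15 and 7.98 FPKM in DMSO, 10.6, 10.99 and 9.71 FPKM at 100 nM and 9.37, 7.29 and 10.1 FPKM at 1000 nM in XG1 libraries. The libraries at 100 nM lay above those in DMSO, and the ones at 1000 nM overlapped both. The change of SREBF2 was 0.29 ± 0.15 (adjusted p = 0.29) at 100 nM and 0.07 ± 0.15 (adjusted p = 0.821) at 1000 nM, neither past the test, although centring gave 0.33 at 1000 nM (adjusted p = 0.0364) and quantile normalization gave 0.38 at 100 nM (adjusted p = 0.00804) and 0.39 at 1000 nM (adjusted p = 0.00513). The AMO1 libraries had 34.2, 39.3 and 28.2 FPKM in DMSO, 30.3, 28.6 and 30.3 FPKM at 100 nM and 28.9, 29.02 and 28.8 FPKM at 1000 nM, with treated libraries inside the spread of DMSO. The AMO1 changes were -0.17 ± 0.15 (adjusted p = 0.658) at 100 nM and -0.21 ± 0.15 (adjusted p = 0.378) at 1000 nM, and centring turned their sign (0.0058 and 0.08).

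The promoter of SREBF2 is shown because it alone, among the genes with a promoter entry, held TCACCCCAC, the core of the sterol regulatory element. It lies on chromosome 22 of GRCh38.p14 at chr22:41832855-41833078, plus strand, 250 to 27 bases before the start. Capitals mark that element and CCAAT on either strand.
SREBF2 upstream: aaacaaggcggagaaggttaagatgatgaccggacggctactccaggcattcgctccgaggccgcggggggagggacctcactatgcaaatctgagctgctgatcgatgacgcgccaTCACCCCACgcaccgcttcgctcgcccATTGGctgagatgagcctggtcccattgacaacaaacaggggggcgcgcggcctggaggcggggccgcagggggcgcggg

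SCAP, the escort of the SREBP factors, was at 15.3, 16.6 and 18.7 FPKM in DMSO, 18.1, 15.8 and 12.9 FPKM at 100 nM and 18.4, 14.8 and 17.7 FPKM at 1000 nM in XG1 libraries. In AMO1 it was at 28.3, 30.3 and 20.2 FPKM in DMSO, 25.7, 26.9 and 29.04 FPKM at 100 nM and 24.1, 23.1 and 23.5 FPKM at 1000 nM. Every treated group overlapped its DMSO group. The changes of SCAP were -0.11 ± 0.16 and 0.01 ± 0.16 log2 at 100 and 1000 nM in XG1 libraries and 0.07 ± 0.16 and -0.13 ± 0.16 in AMO1, with no adjusted p under 0.664. INSIG2, the paralog of INSIG1, was low, at 2.62, 0.802 and 1.21 FPKM in DMSO, 1.45, 2.31 and 1.70 FPKM at 100 nM and 2.15, 0.432 and 1.58 FPKM at 1000 nM in XG1 libraries. INSIG2 in AMO1 was at 1.23, 1.96 and 1.63 FPKM in DMSO, 1.38, 0.668 and 1.20 FPKM at 100 nM and 0.792, 1.07 and 1.36 FPKM at 1000 nM. Here too the groups overlapped, and the changes were 0.20 ± 0.27 and -0.10 ± 0.27 in XG1 libraries and -0.33 ± 0.27 and -0.33 ± 0.27 in AMO1, with a smallest adjusted p of 0.459. Centring or leaving out a library turned the sign of SCAP or INSIG2 in some of these comparisons.

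In the sterol branch SQLE, squalene epoxidase, was the gene of the 32 with the largest fall in XG1 libraries at both doses. It was at 48.2, 41.0 and 43.7 FPKM in DMSO, 17.4, 22.2 and 22.2 FPKM at 100 nM and 18.03, 13.3 and 21.0 FPKM at 1000 nM in XG1 libraries. Each treated library was well under the DMSO libraries, and the doses overlapped. SQLE in AMO1 was at 27.0, 33.8 and 20.03 FPKM in DMSO, 13.1, 17.9 and 20.1 FPKM at 100 nM and 15.5, 16.0 and 16.7 FPKM at 1000 nM. At 1000 nM the AMO1 libraries lay close together and below DMSO, and at 100 nM the groups touched. SQLE fell by 1.07 ± 0.20 log2 in XG1 libraries at 100 nM (adjusted p = 0.00234) and by 1.32 ± 0.20 at 1000 nM (adjusted p = 1.84e-04; -1.06 after centring), and kept both calls under each alternative run. In AMO1 the change was -0.62 ± 0.20 at 100 nM, not past the test (adjusted p = 0.106), and -0.68 ± 0.20 at 1000 nM (adjusted p = 0.0224). This AMO1 call was lost after centring (-0.39, adjusted p = 0.107), and without AMO1 DMSO replicate 1, DMSO replicate 2, 1000 nM replicate 1 or 1000 nM replicate 2 the adjusted p was 0.0662, 0.135, 0.0745 and 0.0662. It was lost as well with no filter, quantile normalization or only the compared libraries (adjusted p = 0.0543, 0.0687 and 0.061). Without AMO1 DMSO replicate 3 SQLE passed at 100 nM too (-0.81, adjusted p = 0.0174).

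DHCR7, the reductase whose product is cholesterol, fell in 3 of the 4 comparisons. In XG1 libraries it was at 29.1, 26.1 and 23.7 FPKM in DMSO, 14.3, 17.9 and 16.2 FPKM at 100 nM and 15.9, 14.0 and 16.3 FPKM at 1000 nM. The 6 treated libraries lay below DMSO and overlapped each other. The AMO1 levels were 32.1, 36.4 and 40.0 FPKM in DMSO, 24.9, 31.3 and 27.7 FPKM at 100 nM and 24.5, 16.3 and 20.4 FPKM at 1000 nM. The AMO1 groups were stepped with no overlap, highest in DMSO. The change was -0.67 ± 0.16 log2 at 100 nM (adjusted p = 0.0152) and -0.73 ± 0.16 at 1000 nM (adjusted p = 0.00369) in XG1 libraries. The AMO1 change was -0.36 ± 0.16 at 100 nM, not past the test (adjusted p = 0.283), and -0.81 ± 0.16 at 1000 nM (adjusted p = 0.0019). Centring left -0.52 at 1000 nM in AMO1 (adjusted p = 0.0494), but -0.48 in XG1 libraries, which was no longer called (adjusted p = 0.0665). Quantile normalization ended the same XG1 call (-0.42, adjusted p = 0.0969), and the replicate block ended the XG1 call at 100 nM (adjusted p = 0.0545). The call at 100 nM rested on single libraries too: without XG1 DMSO replicate 1, DMSO replicate 2 or 100 nM replicate 1 the adjusted p was 0.0692, 0.0531 and 0.0703. Its promoter is shown as that of a sterol branch gene that fell in both lines, from chromosome 11 of GRCh38.p14 at chr11:71448436-71448643, minus strand, 250 to 43 bases before the start. Capitals mark CCAAT and GGGCGG on either strand.
DHCR7 upstream: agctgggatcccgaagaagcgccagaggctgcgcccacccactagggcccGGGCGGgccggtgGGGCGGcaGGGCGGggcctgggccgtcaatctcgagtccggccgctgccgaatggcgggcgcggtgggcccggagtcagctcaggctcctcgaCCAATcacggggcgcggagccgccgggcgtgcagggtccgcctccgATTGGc

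FDFT1, squalene synthase, which commits farnesyl diphosphate to sterols, was at 145, 125 and 104 FPKM in DMSO, 109, 122 and 122 FPKM at 100 nM and 86.8, 92.3 and 96.5 FPKM at 1000 nM in AMO1. The 1000 nM libraries lay below both other groups. The fall of 0.42 ± 0.14 log2 at 1000 nM passed the test (adjusted p = 0.0373). It shrank to -0.13 after centring (adjusted p = 0.531), and without AMO1 DMSO replicate 1, DMSO replicate 2, 1000 nM replicate 1, 1000 nM replicate 2 or 1000 nM replicate 3 the adjusted p was 0.184, 0.0996, 0.135, 0.0973 and 0.06. No filter, quantile normalization, the replicate block and a fit of only the compared libraries gave adjusted p = 0.0607, 0.243, 0.0924 and 0.149. MSMO1, which removes methyl groups from sterol intermediates, was at 24.2, 26.04 and 20.3 FPKM in DMSO, 19.5, 16.9 and 18.4 FPKM at 100 nM and 16.0, 15.9 and 16.6 FPKM at 1000 nM in AMO1, again with no overlap among the groups. MSMO1 fell by 0.50 ± 0.16 log2 at 1000 nM (adjusted p = 0.0311), a change of -0.21 after centring (adjusted p = 0.235). On single libraries, without AMO1 DMSO replicate 1, DMSO replicate 2, 1000 nM replicate 1, 1000 nM replicate 2 or 1000 nM replicate 3 the adjusted p was 0.0973, 0.13, 0.0928, 0.0947 and 0.0628. For MSMO1 no filter, quantile normalization, the replicate block and only the compared libraries gave adjusted p = 0.0502, 0.19, 0.0775 and 0.062. In XG1 libraries at 1000 nM FDFT1 differed by -0.30 ± 0.14 (adjusted p = 0.142) and MSMO1 by -0.13 ± 0.16 (adjusted p = 0.627), neither past the test.

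TM7SF2, a sterol reductase that acts after CYP51A1, went the other way in AMO1. It was at 6.96, 6.17 and 3.02 FPKM in DMSO, 11.6, 11.6 and 13.3 FPKM at 100 nM and 8.66, 9.27 and 10.7 FPKM at 1000 nM in AMO1. All 6 treated libraries lay above the DMSO libraries, of which replicate 3 was far below the others. In XG1 libraries, where TM7SF2 was at 16.3, 19.3 and 16.4 FPKM in DMSO, 16.5, 19.9 and 16.9 FPKM at 100 nM and 11.6, 11.01 and 19.4 FPKM at 1000 nM, treated and DMSO values overlapped. TM7SF2 rose by 1.10 ± 0.22 log2 at 100 nM (adjusted p = 0.0118) and by 0.78 ± 0.22 at 1000 nM (adjusted p = 0.0214; 1.07 after centring) in AMO1. The rise at 1000 nM fell to 0.48 without AMO1 DMSO replicate 3, and without AMO1 DMSO replicate 3, 1000 nM replicate 2 or 1000 nM replicate 3 the adjusted p was 0.0826, 0.0568 and 0.0752. With only the compared libraries in the fit neither rise passed (adjusted p = 0.152 at 100 nM and 0.0856 at 1000 nM). With no filter the rise at 1000 nM was not called (adjusted p = 0.0553). In XG1 libraries the changes were 0.03 ± 0.22 (adjusted p = 0.984) and -0.33 ± 0.22 (adjusted p = 0.353). The annotated span of TM7SF2 overlaps that of its neighbour VPS51 by 7 bases on the same strand, and VPS51 was not called against DMSO in either line at either dose. The other 6 sterol branch genes, LSS, CYP51A1, NSDHL, HSD17B7, EBP and SC5D, were not called against DMSO. At 1000 nM they ranged from -0.76 to -0.06 log2 in XG1 libraries, lowest for EBP, a sterol isomerase (adjusted p = 0.0837), and from -0.73 to -0.16 in AMO1, lowest for HSD17B7, a sterol ketone reductase (adjusted p = 0.0791). Without XG1 1000 nM replicate 3, EBP and the lanosterol demethylase CYP51A1 passed in XG1 libraries (-1.06 and -0.58, adjusted p = 0.0146 and 0.0391).

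**Figure D2:**
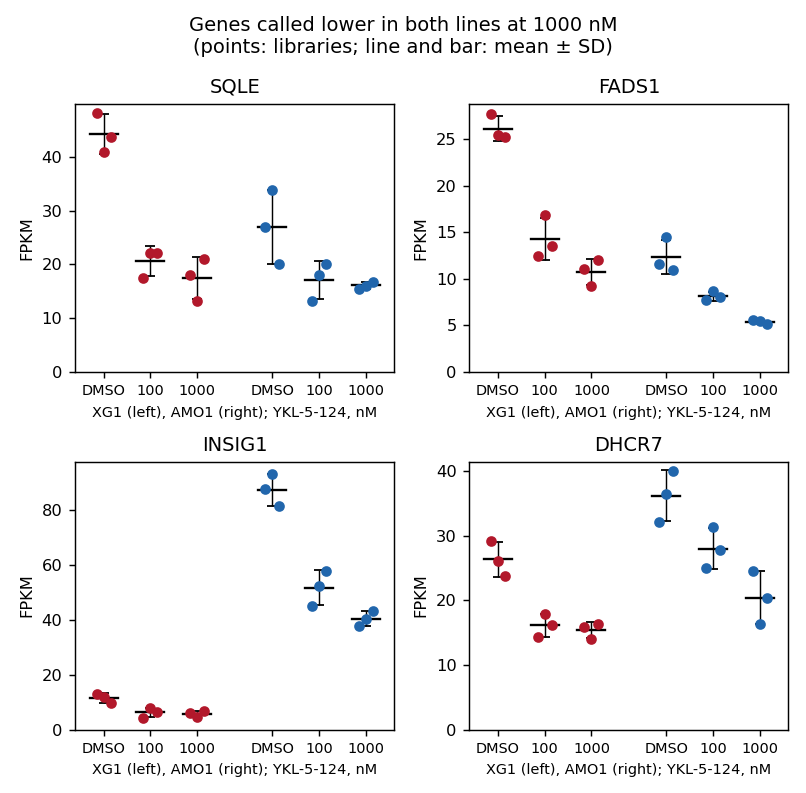
Levels in FPKM (y axis, from 0) of SQLE, FADS1, INSIG1 and DHCR7 in DMSO and at 100 and 1000 nM YKL-5-124 (x axis), XG1 libraries in red at the left and AMO1 in blue at the right; points are libraries, lines and bars the mean ± SD of 3. In each panel the libraries at 1000 nM lie below the DMSO libraries of their line.

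Of the 8 mevalonate pathway genes 1 was called. HMGCS1, the synthase that makes HMG-CoA, was at 149, 121 and 74.1 FPKM in DMSO, 81.3, 66.1 and 93.0 FPKM at 100 nM and 53.6, 73.2 and 80.8 FPKM at 1000 nM in AMO1. The highest treated values overlapped DMSO replicate 3. HMGCS1 fell by 0.68 ± 0.22 log2 at 1000 nM in AMO1 (adjusted p = 0.0338), or -0.39 after centring, which did not pass (adjusted p = 0.177). As to single libraries, without AMO1 DMSO replicate 1, DMSO replicate 2, 1000 nM replicate 1 or 1000 nM replicate 2 the adjusted p was 0.189, 0.124, 0.18 and 0.0662, while without DMSO replicate 3 the fall at 100 nM passed as well (-0.75, adjusted p = 0.0221). At 1000 nM no filter, quantile normalization, the replicate block and only the compared libraries gave adjusted p = 0.0862, 0.0823, 0.0704 and 0.151. In XG1 libraries HMGCS1 was at 16.8, 20.7 and 21.7 FPKM in DMSO, 13.6, 14.5 and 12.9 FPKM at 100 nM and 13.2, 13.8 and 18 FPKM at 1000 nM, with the 100 nM libraries all below DMSO and the 1000 nM libraries overlapping it. Its XG1 changes of -0.49 ± 0.22 (adjusted p = 0.198) and -0.38 ± 0.22 (adjusted p = 0.248) did not pass.

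The other 7 genes of the pathway run from the thiolase ACAT2 through the kinases MVK and PMVK, the decarboxylase MVD and the isomerase IDI1 to FDPS and GGPS1, which make farnesyl and geranylgeranyl diphosphate. None was called against DMSO by limma, and at 1000 nM they ranged from -0.55 to -0.03 log2 in XG1 libraries and from -0.36 to 0.14 in AMO1. MVK came nearest in XG1 libraries, at 7.50, 6.49 and 6.46 FPKM at 100 nM, against 12.9, 9.34 and 12.1 FPKM in DMSO. These MVK groups did not overlap, and the change was -0.66 ± 0.22 (adjusted p = 0.0783). MVK passed there after quantile normalization (adjusted p = 0.0421) and with only the compared libraries in the fit (adjusted p = 0.0455), and IDI1 passed at 1000 nM in XG1 libraries without 1000 nM replicate 3 (-0.76, adjusted p = 0.0438). Reads of GGPS1 may be shared with TBCE, which overlaps its last exon on the same strand. Reads of ACAT2 and FDPS may be shared with TCP1 and RUSC1-AS1, which overlap their last exons on the opposite strand, as may those of HMGCS1, LSS and ACLY with antisense genes, since it is not given whether counting used strand.

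STARD4 carries cholesterol between membranes and is itself a sterol-regulated gene. In XG1 libraries it was at 2.24, 2.57 and 2.07 FPKM in DMSO, 3.59, 5.17 and 4.57 FPKM at 100 nM and 6.48, 1.60 and 4.24 FPKM at 1000 nM. The 100 nM libraries lay above DMSO, and at 1000 nM replicate 2 lay below DMSO while the other two lay above. In AMO1 it was at 2.30, 2.81 and 2.37 FPKM in DMSO, 5.29, 4.05 and 5.13 FPKM at 100 nM and 4.96, 6.28 and 4.63 FPKM at 1000 nM, with all 6 treated libraries above DMSO. STARD4 rose by 0.84 ± 0.26 log2 at 1000 nM in AMO1 (adjusted p = 0.0306; 1.14 after centring), and without AMO1 DMSO replicate 1, DMSO replicate 2, DMSO replicate 3, 1000 nM replicate 1 or 1000 nM replicate 2 the adjusted p was 0.0908, 0.0612, 0.0549, 0.0692 and 0.123. This call was also lost with no filter (adjusted p = 0.0778) and with the replicate block (adjusted p = 0.0618). The changes at 100 nM in AMO1 (0.73 ± 0.26, adjusted p = 0.151) and at 100 and 1000 nM in XG1 libraries (0.72 ± 0.26 and 0.51 ± 0.26, adjusted p = 0.111 and 0.191) were of the same sign and did not pass. All 3 passed after centring (0.91, 0.73 and 0.77, adjusted p = 0.0183, 0.0265 and 0.0163). Without XG1 1000 nM replicate 2 the change at 1000 nM in XG1 libraries was 0.93 (adjusted p = 0.00542). Its promoter is shown as that of a gene that rose while other sterol genes fell, from chromosome 5 of GRCh38.p14 at chr5:111512591-111512785, minus strand, 250 to 56 bases before the start, with CCAAT in capitals.
STARD4 upstream: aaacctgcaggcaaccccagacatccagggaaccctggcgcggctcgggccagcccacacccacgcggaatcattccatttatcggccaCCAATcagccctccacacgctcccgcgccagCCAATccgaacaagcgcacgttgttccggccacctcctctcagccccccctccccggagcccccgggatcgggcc

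**Figure D3:**
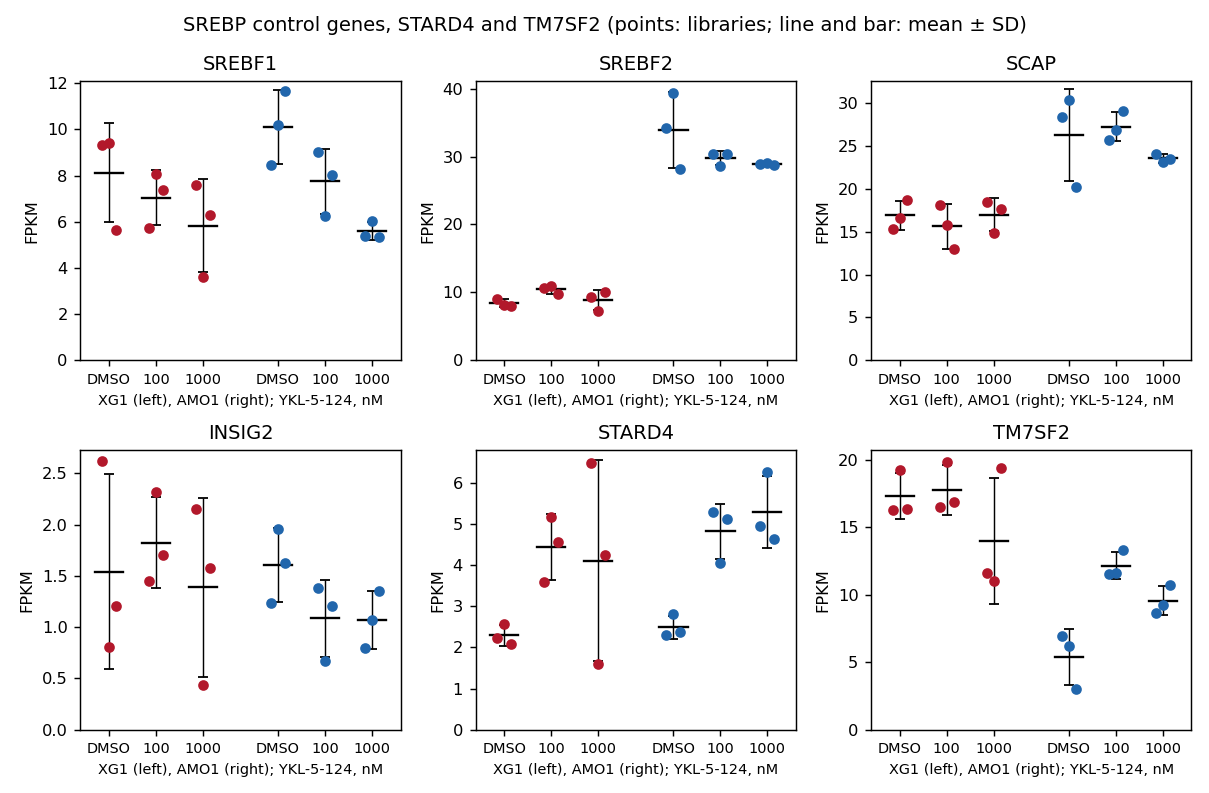
Levels in FPKM (y axis, from 0) of the control genes SREBF1, SREBF2, SCAP and INSIG2, the sterol carrier STARD4 and the reductase TM7SF2 in DMSO and at 100 and 1000 nM YKL-5-124 (x axis), XG1 libraries in red at the left and AMO1 in blue at the right; points are libraries, lines and bars the mean ± SD of 3. SREBF2, SCAP and INSIG2 overlap between treated and DMSO libraries at 1000 nM, while TM7SF2 and STARD4 in AMO1 do not.

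Among the fatty acid genes FADS1, a desaturase that makes polyunsaturated fatty acids such as arachidonic acid, was the one that fell. In XG1 libraries it was at 27.7, 25.5 and 25.3 FPKM in DMSO, 12.5, 16.9 and 13.6 FPKM at 100 nM and 11.03, 9.17 and 11.98 FPKM at 1000 nM. In AMO1 it was at 11.6, 14.5 and 10.9 FPKM in DMSO, 7.69, 8.67 and 8.02 FPKM at 100 nM and 5.54, 5.47 and 5.13 FPKM at 1000 nM. In both lines the 3 groups were stepped with no overlap, lowest at 1000 nM. FADS1 fell by 0.84 ± 0.15 log2 at 100 nM (adjusted p = 0.00237) and by 1.22 ± 0.15 at 1000 nM (adjusted p = 3.25e-05; -0.96 after centring) in XG1 libraries. In AMO1 FADS1 fell by 1.06 ± 0.15 at 1000 nM (adjusted p = 1.53e-04; -0.76 after centring), while -0.54 ± 0.15 at 100 nM did not pass (adjusted p = 0.0719) except without AMO1 DMSO replicate 3 (adjusted p = 0.0251). These 3 calls held under each alternative run. The promoter of FADS1 is shown as that of the fatty acid gene that fell, from chromosome 11 of GRCh38.p14 at chr11:61817163-61817253, minus strand, 250 to 160 bases before the start, with GGGCGG on either strand in capitals.
FADS1 upstream: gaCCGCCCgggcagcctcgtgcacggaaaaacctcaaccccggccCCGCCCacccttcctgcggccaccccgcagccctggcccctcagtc

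The other 6 fatty acid genes were not called against DMSO. They were ACLY, which makes cytosolic acetyl-CoA, ACACA, which makes malonyl-CoA, the synthase FASN, the desaturases SCD and FADS2 and the elongase ELOVL6. At 1000 nM they ranged from -0.17 to 0.17 log2 in XG1 libraries and from -0.45 to -0.03 in AMO1. FASN, for example, was at 63.3 ± 2.49 FPKM at 1000 nM, against 62.1 ± 4.42 FPKM in DMSO in XG1 libraries, and at 48.4 ± 3.16, against 53.1 ± 16.7 FPKM in AMO1 (SD, n = 3 each). FADS2, the neighbour of FADS1 on chromosome 11 and the other front-end desaturase, was at 1.04 ± 0.515 FPKM at 1000 nM, against 0.809 ± 0.433 FPKM in DMSO in XG1 libraries, and at 1.49 ± 0.549, against 1.56 ± 0.599 FPKM in AMO1. Its changes at 1000 nM were 0.17 ± 0.24 (adjusted p = 0.697) and -0.03 ± 0.24 (adjusted p = 0.959), beside falls of over 1 log2 for FADS1. The AMO1 values depended on DMSO replicate 3, since without it 13 of the 32 genes were called in AMO1 at 1000 nM in place of 10, with ACLY, FASN, SCD, CYP51A1, MVK and PMVK gained and SREBF1, STARD4 and TM7SF2 lost. Of all genes 23.7% fell without this library, in place of 15.4%.

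The 2 doses were compared directly. Between 1000 and 100 nM 0 of the 32 genes were called by limma in either line, where 0.139% of all genes were called in XG1 libraries and 0.18% in AMO1. At an unadjusted p under 0.05 there were 1 of the 32 genes in XG1 libraries, beside 16.3% of all genes, and 4 in AMO1, beside 10.5%. FADS1 came nearest in both, with -0.38 ± 0.15 log2 in XG1 libraries (adjusted p = 0.235, 95% interval -0.70 to -0.06) and -0.52 ± 0.15 in AMO1 (adjusted p = 0.21, 95% interval -0.84 to -0.19). For INSIG1 the differences were -0.08 ± 0.18 (interval -0.47 to 0.30) and -0.34 ± 0.18 (-0.72 to 0.04), and for SQLE -0.24 ± 0.20 (-0.65 to 0.17) and -0.06 ± 0.20 (-0.47 to 0.35). The comparisons of the doses with DMSO share the DMSO libraries.

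The responses of the lines were set side by side. At 1000 nM all 4 genes called in XG1 libraries were called in AMO1, and 4 of the 10 called in AMO1 were called in XG1 libraries. Called lower in both lines were thus 12.5% of the 32, beside 927 of all genes tested, or 7.60%. At this dose 22 of the 32 genes lay below 0 in both lines, 1 above 0 in both and 9 on opposite sides, while of all 12204 genes 7389 lay below 0 in both. The difference of the responses was tested too, and 0 of the 32 were called by limma at either dose, where 0.156% of all genes were called at 100 nM and 0.68% at 1000 nM. At an unadjusted p under 0.05 there were 3 of the 32 genes at 100 nM, beside 8.78% of all genes, and 2 at 1000 nM, beside 10.1%. TM7SF2 came nearest, with an XG1 minus AMO1 difference of -1.07 ± 0.32 log2 at 100 nM (95% interval -1.73 to -0.40, adjusted p = 0.23) and -1.11 ± 0.32 at 1000 nM (95% interval -1.77 to -0.44, adjusted p = 0.124). It was called after centring at 100 nM (-1.24, adjusted p = 0.0273) and 1000 nM (-1.14, adjusted p = 0.0256), and at 1000 nM without XG1 1000 nM replicate 3 (-1.35, adjusted p = 0.0395). For SQLE the difference at 1000 nM was -0.64 ± 0.28 (95% interval -1.22 to -0.05, adjusted p = 0.425), and for SREBF1 0.31 ± 0.32 (-0.35 to 0.97, adjusted p = 0.847). A call in one line and not in the other is thus no tested difference for these genes.

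**Figure D4:**
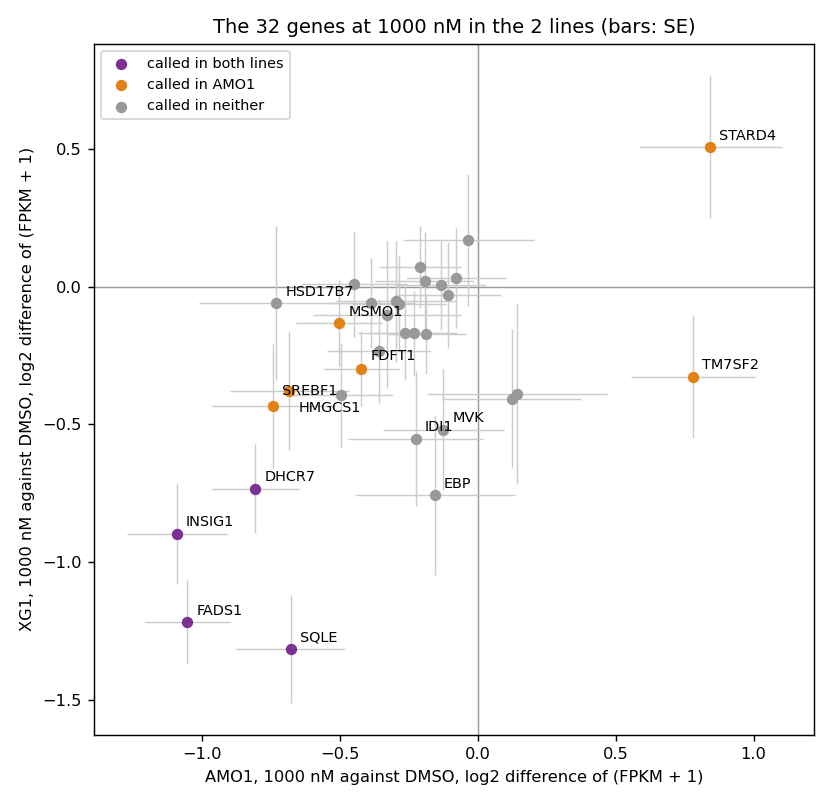
Differences of log2(FPKM + 1) between 1000 nM YKL-5-124 and DMSO for the 32 genes in XG1 libraries (y axis) and AMO1 (x axis), with SE bars; purple points were called in both lines, orange points in AMO1 alone and grey points in neither. The 4 genes called in both lie at the lower left, STARD4 at the upper right, and TM7SF2 below 0 in XG1 libraries and above 0 in AMO1.

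Levels in DMSO differed between the lines for most of the 32 genes. The sum of FPKM over all genes differed too, at 771880 to 957143 in XG1 libraries and 1649175 to 1896255 in AMO1 in DMSO. Its part in the differences between the lines was not tested. In XG1 libraries 17 of the 32 genes were lower than in AMO1, where 34.4% of all genes were lower, and 6 were higher, where 28.3% of all genes were higher. INSIG1 was at 11.5 ± 1.72 FPKM in XG1 libraries and 87.5 ± 5.82 FPKM in AMO1 (SD, n = 3 each), a difference of -2.83 ± 0.18 log2 (adjusted p = 3.41e-11). SREBF2 was at 8.39 ± 0.570 and 33.9 ± 5.58 FPKM (-1.88 ± 0.15, adjusted p = 8.62e-10). SCAP was lower too, at 16.9 ± 1.73 FPKM in XG1 libraries and 26.3 ± 5.33 FPKM in AMO1 (adjusted p = 0.0036). Its call was lost with the replicate block (adjusted p = 0.0666). Of the mevalonate genes HMGCS1, MVK, PMVK, MVD and FDPS were lower in XG1 libraries, by -1.28 to -2.43 log2, and IDI1 and GGPS1 were higher. PMVK, for example, was at 24.7 ± 1.39 FPKM in XG1 libraries and 129.9 ± 23.3 FPKM in AMO1. In the sterol branch EBP was lower by the most in XG1 libraries, at 37.8 ± 4.66 FPKM, against 244 ± 90.6 FPKM in AMO1 (-2.59 ± 0.29, adjusted p = 5.38e-07). LSS, CYP51A1, MSMO1, NSDHL, HSD17B7 and DHCR7 were lower too.

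The 6 genes that were higher in XG1 libraries were IDI1, GGPS1, FDFT1, SQLE, TM7SF2 and FADS1, with differences of 0.60 to 1.58 log2. TM7SF2 was at 17.3 ± 1.69 FPKM in XG1 libraries and 5.39 ± 2.08 FPKM in AMO1 (adjusted p = 4.09e-06), and FADS1 at 26.2 ± 1.35 and 12.3 ± 1.87 FPKM (adjusted p = 7.11e-06). SQLE and FDFT1 stood side by side in the pathway and were both higher, by 0.72 ± 0.20 and 0.70 ± 0.14 log2. Of the fatty acid genes SCD (-1.22 ± 0.22) and ELOVL6 (-0.45 ± 0.18) were lower in XG1 libraries. ACAT2, SC5D, SREBF1, INSIG2, STARD4, ACLY, ACACA, FASN and FADS2 were not called between the lines. The 44 synthetic spike-in transcripts detected differed between the lines with an SD of 0.55 log2, and differences of that size are read with that error. The calls of IDI1, DHCR7 and ELOVL6 were lost when any of several single libraries was left out, and the highest adjusted p values were 0.147 for IDI1, 0.0813 for DHCR7 and 0.212 for ELOVL6.

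**Figure D5:**
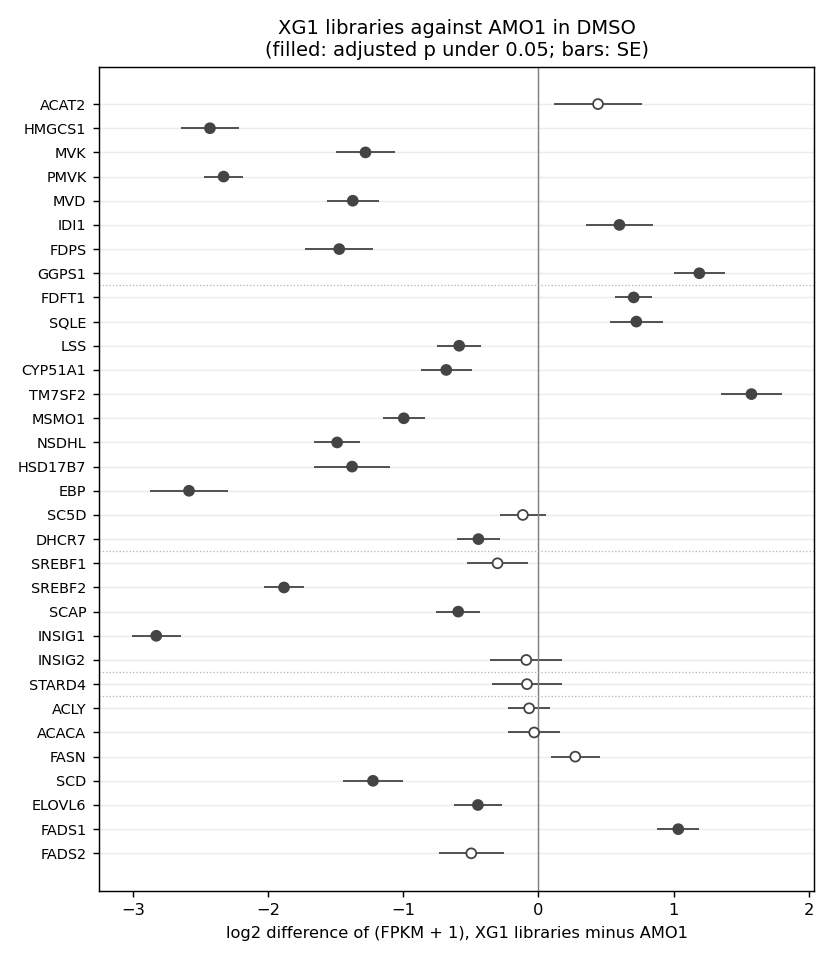
Differences of log2(FPKM + 1) between XG1 libraries and AMO1 in DMSO (x axis, XG1 minus AMO1) for the 32 genes (y axis), with SE bars and filled points where the adjusted p was under 0.05. INSIG1, EBP, HMGCS1 and PMVK lie farthest to the left, and TM7SF2, GGPS1 and FADS1 farthest to the right.

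The promoter windows of the genes share letters that the choice by name did not use. RefSeq promoter windows of GRCh38.p14, 300 bases from 250 before to 50 after a start, were matched to 28 of the 32 genes, and ACAT2, FDFT1, SQLE and FASN are named only. CCAAT or its complement was in a window of 21 of the 28 genes, or 75%, beside 39.7% of 27305 genes in the table. GGGCGG or its complement was in 27 of the 28, or 96.4%, beside 48.3% of all. Counted by window, CCAAT was in 62.5% and GGGCGG in 87.5% of 40 windows, beside 34.6% and 45% of 35116. The genes in the table include genes that were not tested here, while all 32 were. Shares over the tested genes alone were not taken, so these contrasts cannot be tied to the pathway. TCACCCCAC was in 1 of the 28 (SREBF2), beside 0.535% of all genes, and TCACGTGA in 1 (INSIG1), beside 1.18%. Of the genes that fell in both lines, INSIG1 and DHCR7 held both CCAAT and GGGCGG, as the printed stretches show in part. FADS1 held GGGCGG alone, and SQLE had no window. Of the genes that rose in AMO1, STARD4 and TM7SF2 held both as well. A match is a description of letters, not a bound site, and a missing match says only that these letters are not in the window.

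The wider pathway was read from 5 further lists, in which 0 genes rose against DMSO. Of all genes tested 2.63% and 1.9% rose in XG1 libraries at 100 and 1000 nM, and 0.434% and 1.78% in AMO1. With shares this small the 0 is not read as a trait of the lists. Of 21 genes of SREBP processing and sterol sensing, 1 and 2 fell in XG1 libraries at 100 and 1000 nM, and 0 and 5 in AMO1. Of all genes tested 3.98% and 15.7% fell in XG1 libraries at 100 and 1000 nM, and 1.76% and 15.4% in AMO1, and the counts of the 5 lists stand beside these shares. MBTPS1, the protease that first cuts the SREBP factors, was at 5.10 ± 0.619 FPKM at 1000 nM, against 10.1 ± 2.02 FPKM in DMSO in XG1 libraries, and at 5.02 ± 0.478, against 9.57 ± 0.517 FPKM in AMO1 (SD, n = 3 each). MBTPS1 fell at 1000 nM in both lines, by 0.85 ± 0.16 log2 (adjusted p = 0.0011) in XG1 libraries and 0.81 ± 0.16 (adjusted p = 0.00159) in AMO1. It also fell at 100 nM in XG1 libraries (-0.58 ± 0.16, adjusted p = 0.0319), where without XG1 DMSO replicate 1, DMSO replicate 2, 100 nM replicate 1, 100 nM replicate 2 or 100 nM replicate 3 the adjusted p was 0.15, 0.108, 0.0825, 0.0622 and 0.0932. ERLIN2, which helps degrade sterol-regulated proteins of the endoplasmic reticulum, fell at 1000 nM in XG1 libraries (-0.59 ± 0.18, adjusted p = 0.0289), where without XG1 DMSO replicate 1, DMSO replicate 2, DMSO replicate 3 or 1000 nM replicate 2 the adjusted p was 0.119, 0.0519, 0.0541 and 0.153 and centring gave -0.34 (adjusted p = 0.111), and in AMO1 (-0.77 ± 0.18, adjusted p = 0.00621). Its partner ERLIN1 fell in AMO1 (-0.87 ± 0.23, adjusted p = 0.0139), where without AMO1 DMSO replicate 2, 1000 nM replicate 1 or 1000 nM replicate 2 the adjusted p was 0.058, 0.0696 and 0.0593.

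Of 8 tested LXR factors and targets, which serve sterol export, 0 and 1 fell in XG1 libraries at 100 and 1000 nM, and 0 and 1 in AMO1, beside 15.7% and 15.4% of all genes at 1000 nM. RXRB, a partner of LXR factors, fell at 1000 nM in XG1 libraries (-0.81 ± 0.19, adjusted p = 0.00591) and AMO1 (-0.90 ± 0.19, adjusted p = 0.00295). Of 15 tested genes of sterol trafficking and storage, 0 and 1 fell in XG1 libraries and 0 and 2 in AMO1 at the 2 doses, beside the same shares. TMEM97, a sterol-binding membrane protein and SREBP target, was at 20.9 ± 0.237 FPKM at 1000 nM, against 33.6 ± 8.01 FPKM in DMSO in XG1 libraries, and at 18.5 ± 4.15, against 33.0 ± 2.18 FPKM in AMO1. It fell by 0.63 ± 0.17 (adjusted p = 0.016) and 0.82 ± 0.17 log2 (adjusted p = 0.00313), both calls ended after centring (adjusted p = 0.184 and 0.0662), and without XG1 DMSO replicate 1 the adjusted p was 0.119. SCARB1, a lipoprotein receptor, fell in AMO1 at 1000 nM (-0.55 ± 0.18, adjusted p = 0.0447), where without AMO1 DMSO replicate 1, DMSO replicate 2, 1000 nM replicate 1, 1000 nM replicate 2 or 1000 nM replicate 3 the adjusted p was 0.153, 0.187, 0.132, 0.102 and 0.0888 and centring gave -0.25 (adjusted p = 0.243).

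Of 16 tested genes of the isoprenoid branches, 0 and 2 fell in XG1 libraries at 100 and 1000 nM, and 1 and 3 in AMO1, beside 15.7% and 15.4% of all genes at 1000 nM. RABGGTB, a subunit of the enzyme that prenylates Rab proteins, was at 5.29 ± 3.44 FPKM at 1000 nM, against 20.1 ± 8.97 FPKM in DMSO in XG1 libraries, and at 2.55 ± 0.747, against 10.7 ± 2.16 FPKM in AMO1. It fell by 1.85 ± 0.44 log2 in XG1 libraries (adjusted p = 0.01; without XG1 DMSO replicate 1 the adjusted p was 0.0503) and by 1.73 ± 0.44 in AMO1 (adjusted p = 0.0146; without AMO1 1000 nM replicate 2 the adjusted p was 0.0635). COQ2, an enzyme of ubiquinone synthesis, fell in XG1 libraries at 1000 nM (-1.22 ± 0.24, adjusted p = 0.00191). DOLPP1, which recycles dolichyl phosphate, fell in AMO1 at 100 nM (-0.81 ± 0.16, adjusted p = 0.0118; without AMO1 100 nM replicate 2 the adjusted p was 0.0807) and 1000 nM (-1.06 ± 0.16, adjusted p = 2.48e-04). NUS1, a subunit of the enzyme that makes the dolichol chain, fell in AMO1 at 1000 nM (-0.64 ± 0.21, adjusted p = 0.0415), and each of the 6 libraries compared was needed for that call, with adjusted p values up to 0.145 when 1 was left out and 0.15 after centring.

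Of 23 tested genes of other fatty acid and glycerolipid steps, 1 and 2 fell in XG1 libraries at 100 and 1000 nM, and 0 and 6 in AMO1, beside 15.7% and 15.4% of all genes at 1000 nM. MID1IP1, which stimulates acetyl-CoA carboxylase, was at 17.96 ± 1.85 FPKM in DMSO, 9.10 ± 2.502 FPKM at 100 nM and 5.06 ± 0.593 FPKM at 1000 nM in XG1 libraries, changes of -0.94 ± 0.17 (adjusted p = 0.00265) and -1.65 ± 0.17 log2 (adjusted p = 5.34e-06). AGPAT5, an acyltransferase, fell in XG1 libraries at 1000 nM (-0.75 ± 0.16, adjusted p = 0.00277). In AMO1 at 1000 nM the 3 largest falls of the list were those of the acyl-CoA synthetases ACSL4 (-1.10 ± 0.22, adjusted p = 0.00223) and ACSL1 (-0.81 ± 0.18, adjusted p = 0.00418) and of the elongase ELOVL1 (-0.77 ± 0.20, adjusted p = 0.0104), where without AMO1 DMSO replicate 2 or 1000 nM replicate 3 the adjusted p was 0.054 and 0.053. After centring ACSL1 and ELOVL1 were no longer called (adjusted p = 0.0834 and 0.118). ACSL4 was at 6.58 ± 1.71 FPKM at 1000 nM, against 15.1 ± 2.07 FPKM in DMSO in AMO1.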

How the data were processed

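Per the labels' protocols cells grew in 12 well plates, were lysed in TRIzol, and total RNA went into QuantSeq libraries, which read the 3′ ends of polyadenylated transcripts. HISAT2 and Cuffnorm were run by the authors on the build hg19, per the submitters' processing notes; versions, gene annotation and strand setting were not given in the sources used here. Values as deposited are taken to be FPKM, the unit Cuffnorm gives, since the file headers say only that they are expression. Read depth is unknown, the values show no whole-read steps, and no count model was used.

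Genes whose mean reached 1 FPKM in any of the 6 groups were tested on log2(FPKM + 1) of the deposited values, with limma 3.58.1 (R 4.3.3, statmod 1.5.0; trend and robust), in a two-sided test from 1 fit of the 18 libraries with a mean for each group; p values were adjusted by Benjamini-Hochberg over 12204 genes, with a threshold of 0.05. Groups came from the labels, which leave unsaid whether replicates were separate cultures, so p values measure the spread between these libraries. Within each line, each dose was compared with DMSO and 1000 with 100 nM; between the lines, the responses at each dose were compared, and XG1 libraries against AMO1 in DMSO. Members, lists and the rule for named genes were chosen with earlier results of these data known. By that rule changes are given for called members and for SREBF1, SREBF2, SCAP, INSIG1 and INSIG2 against DMSO, and for up to 3 called genes per direction of each further list. A few genes outside it (such as MVK, EBP and FADS2) were named after their values were seen. Some genes of the pathway are not reported here. Alternatives were pseudocounts of 0.1 and 5, no filter, a filter of 5 FPKM, centring, quantile and spike-in scaling, a fit of the compared libraries alone, a replicate block and leaving out each library. Promoter windows are RefSeq's for GRCh38.p14, not the build of the files, and no coordinates were converted.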

Additional observations from a re-analysis of the deposited data

Results flagged for a closer look

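For MID1IP1 the difference between the responses of the lines at 1000 nM was past the threshold, but the gene passed the filter on low values through XG1 libraries alone. MID1IP1 was at 5.24, 4.40 and 5.54 FPKM at 1000 nM, against 19.4, 18.6 and 15.9 FPKM in DMSO in XG1 libraries, and at 0.110, 0.0800 and 0.165 FPKM, against 0.114, 0.130 and 0.0934 FPKM in AMO1. The response was -1.65 ± 0.17 log2 in XG1 libraries and 0.01 ± 0.17 in AMO1, a difference of -1.65 ± 0.25 (limma adjusted p = 0.0014). In AMO1 the gene was near the lowest values of the tables, where log2(FPKM + 1) can hardly move, so the difference restates the fall in XG1 libraries and does not test whether the lines differ. With a pseudocount of 0.1 the difference missed the threshold (adjusted p = 0.0512). Groups of 3 libraries were too small to be searched for single outlying libraries.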

How the results depend on the processing

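The numbers of the 32 genes called were 4, 4, 2 and 10 (XG1 libraries at 100 and 1000 nM, AMO1 at 100 and 1000 nM, against DMSO), 0 between the doses in either line, 0 for the difference of the responses at either dose, and 23 between the lines. Quantile normalization gave 7 at 100 nM in XG1 libraries, of which 5 fell, beside 8.08% of all genes. In AMO1 at 100 nM the count was 1 with a pseudocount of 0.1, 1 with no filter and 0 with only the compared libraries in the fit. Under these settings 0 of the 32 fell, beside 0.77%, 0.549% and 0.0164% of all genes in turn. In AMO1 at 1000 nM it was 3 with no filter, 5 after centring, 5 after quantile normalization and 6 with only the compared libraries. Of all genes 5.42%, 6.68%, 8.28% and 11.6% fell there under these settings in turn. Centring gave 1 for the difference of responses at 100 nM and 1 at 1000 nM, and quantile normalization 1 at 1000 nM. An alternative chosen after seeing the data left out XG1 1000 nM replicate 2 and AMO1 DMSO replicate 3 together and gave 6 and 17 in AMO1 at 100 and 1000 nM. Under it 4 and 16 of the 32 fell, beside 9.17% and 26.8% of all genes. In the main fit 1.76% and 15.4% of all genes fell there, so the whole table moved with the 32. Leaving out 1 library gave 2 to 4 and 4 to 7 in XG1 libraries, 1 to 5 and 3 to 13 in AMO1, 0 to 0 between the doses, 0 to 0 and 0 to 1 for the difference of responses, and 21 to 23 between the lines. Other settings kept each count within 1.5 times.

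With the replicate block the count was 1 in AMO1 at 100 nM and 5 at 1000 nM, and other counts stayed within 1.5 times. The labels share replicate numbers but no pairing, and libraries of the same number did not deviate together, with correlations of -0.12 to 0.09 over 9 pairs in AMO1 and -0.05 to 0.03 over 9 in XG1 libraries, and 3 and 1 of 9 best with their own number.

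The sign turned only for values that had not passed. Leaving out single libraries gave SCAP -0.22 to 0.0071 at 100 nM and -0.058 to 0.10 at 1000 nM in XG1 libraries and -0.10 to 0.18 at 100 nM in AMO1, SREBF2 -0.017 to 0.19 at 1000 nM in XG1 libraries, and INSIG2 -0.013 to 0.49 and -0.34 to 0.23 at 100 and 1000 nM in XG1 libraries. Centring gave 0.16 for SCAP and 0.082 for SREBF2 at 1000 nM in AMO1, 0.0058 for SREBF2 at 100 nM in AMO1, and 0.16 for INSIG2 at 1000 nM in XG1 libraries. Quantile normalization gave 0.00071 for SCAP at 100 nM and 0.012 for INSIG2 at 1000 nM in XG1 libraries, and 0.12 for SCAP and 0.037 for SREBF2 at 1000 nM in AMO1. Without the pair of libraries named above SCAP was -0.10 at 100 nM in AMO1 and INSIG2 0.23 at 1000 nM in XG1 libraries. Over all named gene values 714 of 813 kept direction and side of the threshold under settings that left out no single library, 85 lost and 4 gained a call; on leaving out 1 library 409 of 498 did and 79 lost a call. The causes were not tested. Depth is unknown, so no limit on low genes such as HSD17B7, INSIG2 and FADS2 could be set.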
